A study of Homo sapiens with 6 samples.

Results

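The genes described here are 38 genes of epithelial cell junctions, keratins and their regulators, taken as a list of names: cadherins and EPCAM, claudins and other tight junction genes, desmosome genes, simple keratins, epithelial transcription and splicing factors, and a group of epithelial trafficking, protease and mucin genes. All probe sets annotated to 1 of these names were used, which gave 74 of 54613 probe sets and 36 of 19775 genes. F11R had no probe set under its name in the platform annotation, and the probe set that lists ESRP2 also lists a microRNA gene, so these 2 genes are not reported. The values come from IGROV1, an established human ovarian carcinoma cell line grown in serum-containing medium. Its cells were stained with the DNA dye Hoechst 33342 and sorted into a side population (SP), whose cells keep little dye, and a population that retains it (non-SP), and 3 samples of each were hybridised to 1 array apiece. Both groups carried the same stain and sort and no other treatment, and the results concern this 1 line. The labels name biological replicates without saying whether separate cultures were sorted, and p-values therefore reflect only how far these 6 samples spread, technical spread included.

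Epithelial cells are held together by several kinds of junction. Adherens junctions are built on the cadherins, which bind the cadherins of the neighbouring cell. Tight junctions, made of claudins, occludin and scaffold proteins, seal the space between cells, and desmosomes tie the keratin filaments of neighbouring cells together. Ovarian carcinomas commonly express these proteins, and their loss is a textbook mark of the epithelial-to-mesenchymal transition, in which factors such as SNAI1 and ZEB1 bind E-boxes in the promoters of epithelial genes. GRHL, OVOL and ESE-type ETS factors (ELF3 and EHF) are known for keeping epithelial genes active.

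The stretch of 250 bases upstream of a start site was examined for 3 short motifs, because ELF3 and EHF are the regulators whose SP values all lay above the non-SP values and because E-boxes are the sites through which epithelial genes are known to be repressed. RefSeq (GRCh38.p14) windows matched 21 of the 38 genes, with 32 windows, some of which overlap since a gene can have several starts. CDH1 and KRT7 were among the genes without a window. The E-box CAGGTG, read on both strands, was in 15 of the 32 windows (46.9%), against 17.5% of all 35116 windows of the same length. By gene it was in 13 of the 21, with no share over all genes to set beside it. The GRHL-type motif AACNNGTT, which reads the same on both strands, was in 0 of the 32 windows and in 3% of all windows. The ETS-type motif CCGGAA, read on both strands, was in 3 of the 32 (9.38%) and in 14.5% of all windows. No match of these motifs overlapped another in the windows shown. The windows printed are those of the regulators ELF3 and EHF (both starts), of the keratin KRT8, whose values were lower in SP cells, and of CRB3, whose window held the most E-boxes, each read 5' to 3' with matches in capitals.
ELF3, chr1:202010337-202010586, plus strand: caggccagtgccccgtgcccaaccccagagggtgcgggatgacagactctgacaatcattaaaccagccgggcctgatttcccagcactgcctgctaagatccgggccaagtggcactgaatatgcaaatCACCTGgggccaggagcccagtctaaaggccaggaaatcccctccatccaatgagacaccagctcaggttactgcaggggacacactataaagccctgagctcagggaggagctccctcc
EHF start 1, chr11:34624007-34624256, plus strand: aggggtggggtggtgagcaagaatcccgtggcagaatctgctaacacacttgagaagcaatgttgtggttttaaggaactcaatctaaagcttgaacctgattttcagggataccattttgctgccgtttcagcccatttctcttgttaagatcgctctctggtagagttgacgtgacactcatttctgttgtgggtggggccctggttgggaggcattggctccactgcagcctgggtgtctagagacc
EHF start 2, chr11:34632316-34632565, plus strand: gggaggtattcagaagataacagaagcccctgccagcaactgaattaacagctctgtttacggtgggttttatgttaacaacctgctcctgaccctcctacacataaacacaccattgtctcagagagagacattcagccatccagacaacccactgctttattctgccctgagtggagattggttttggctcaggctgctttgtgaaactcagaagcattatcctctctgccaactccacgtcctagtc
KRT8, chr12:52926470-52926719, minus strand: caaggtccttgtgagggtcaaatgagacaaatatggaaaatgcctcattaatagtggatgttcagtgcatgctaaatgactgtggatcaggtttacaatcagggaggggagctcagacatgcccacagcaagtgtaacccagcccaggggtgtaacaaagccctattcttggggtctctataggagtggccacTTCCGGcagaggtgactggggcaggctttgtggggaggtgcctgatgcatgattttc
CRB3, chr19:6464021-6464270, plus strand: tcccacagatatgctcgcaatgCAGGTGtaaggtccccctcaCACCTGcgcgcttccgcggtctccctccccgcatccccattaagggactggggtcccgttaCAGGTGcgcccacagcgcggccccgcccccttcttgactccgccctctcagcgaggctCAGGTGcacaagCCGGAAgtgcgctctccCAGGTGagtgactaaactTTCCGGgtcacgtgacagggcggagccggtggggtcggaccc
The ELF3 window held 1 E-box, the CRB3 window held 5 E-boxes and 2 ETS-type matches, the KRT8 window held 1 ETS-type match, and both EHF windows held none of the 3 motifs. A match is a run of letters and not a shown binding site.

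Values are log2 expression as deposited, after background adjustment and between-array normalization by RMA, so a difference of 1 is a doubling; the median per array lay between 5.59 and 5.64. The bacterial TrpnX control probe sets, which no human RNA should bind, served as background, with the highest of the 3 lying between 3.17 and 3.53 per array. All 8 epithelial and ovarian carcinoma markers, among them EPCAM, KRT8, KRT18, PAX8 and WT1, lay above it on all 6 arrays. Of the 17 measured markers of other cell types, 12 also lay above it on all 6 arrays: 3 of 5 leukocyte, 3 of 5 endothelial and 6 of 7 fibroblast markers. Among these, COL1A1 averaged 6.97 in SP and 7.07 in non-SP samples, CDH5 6.58 and 6.53, and CD79A 5.72 and 5.70. CD3E and LUM lay below it on every array, and PTPRC was above it on 1 array. Over the whole marker lists, leukocyte means per array were 4.0 to 4.21 in SP and 3.94 to 4.14 in non-SP samples. Endothelial means were 4.63 to 4.86 and 4.86 to 4.92, and fibroblast means 4.30 to 4.40 and 4.38 to 4.50. Because all samples come from 1 carcinoma line, a value above this background does not by itself show that a gene is expressed. The source of these marker values was not tested. The arrays part on the first principal component of all genes (45.8% of the variance) into SP 1, non-SP 1 and non-SP 3 on one side and SP 2, SP 3 and non-SP 2 on the other. SP 2, SP 3 and non-SP 2 also had the highest ACTB 3' minus 5' control signal, 2.46 to 2.55, against 2.02 to 2.29 on the other arrays; that signal averaged 2.34 in SP and 2.29 in non-SP samples (exact permutation test, two-sided, p = 0.9; 3 against 3 cannot go below 0.1). These are called the high-ACTB and low-ACTB arrays. They are not groups of the study, and the part of this signal in any result was not tested beyond the values given. A difference within the low-ACTB arrays sets SP 1 alone against non-SP 1 and non-SP 3. Within the high-ACTB arrays it sets SP 2 and SP 3 against non-SP 2 alone, so neither has replicates on both sides.

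The question of the comparison is whether cells that export the dye differ in these genes from cells that retain it. The 8 members with an unadjusted p under 0.05 (limma) are named first. In SP samples the values of KRT7, CDH1, ELF3, DSC2, PKP2 and EHF were higher, by 1.34-fold to 1.73-fold. Those of KRT8 and TJP3 were lower, at 0.613 and 0.632 of the non-SP level. These 8 were picked on the same values, and 0 passed after adjustment. Members with differences in opposite directions occurred within keratins and within regulators, and 22 of the 36 genes differed by less than 0.25 log2 units either way. In the limma fit across all genes 0 members were higher and 0 lower at a Benjamini-Hochberg adjusted p under 0.05, where 0.00506% of all genes passed (1 gene); the smallest adjusted p of a member was 0.451, for KRT7. The members with an unadjusted p under 0.05 were 8 of 36, beside 1340 of 19775 genes (6.78%). No member passed in any of the 16 alternative settings.

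By direction, 19 of the 36 members (52.8%) had a difference above 0, where 45.3% of all genes did, and their median was 0.05, against -0.02 over all genes. The SP values lay wholly above the non-SP values for 4 members (11.1%), beside 4.78% of all genes, and wholly below for 3 members (8.33%), beside 7.1% of all genes; 7 members did so in either direction, beside 11.9% of all genes. The 4 were KRT7, ELF3, EHF and PKP2, and the 3 were KRT8, EPCAM and OVOL1. With 1 sample left out, groups overlap less often by construction, for all genes as well. The members wholly above then numbered 7 without SP replicate 1 (beside 11% of all genes), 7 without SP replicate 2 (7.88%), 5 without SP replicate 3 (7.74%), 6 without non-SP replicate 1 (8.35%), 10 without non-SP replicate 2 (11.5%) and 5 without non-SP replicate 3 (8.22%), or 13.9% to 27.8% of the 36. The members wholly below numbered 7 without SP replicate 1 (beside 16.2% of all genes), 3 without SP replicate 2 (10.2%), 5 without SP replicate 3 (11.3%), 5 without non-SP replicate 1 (11.6%), 4 without non-SP replicate 2 (14.7%) and 5 without non-SP replicate 3 (12.7%), or 8.33% to 19.4% of the 36. Because RNA was measured in bulk, a smaller share of cells expressing a gene and less RNA per cell cannot be told apart in any of these values.

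**Figure D1:**
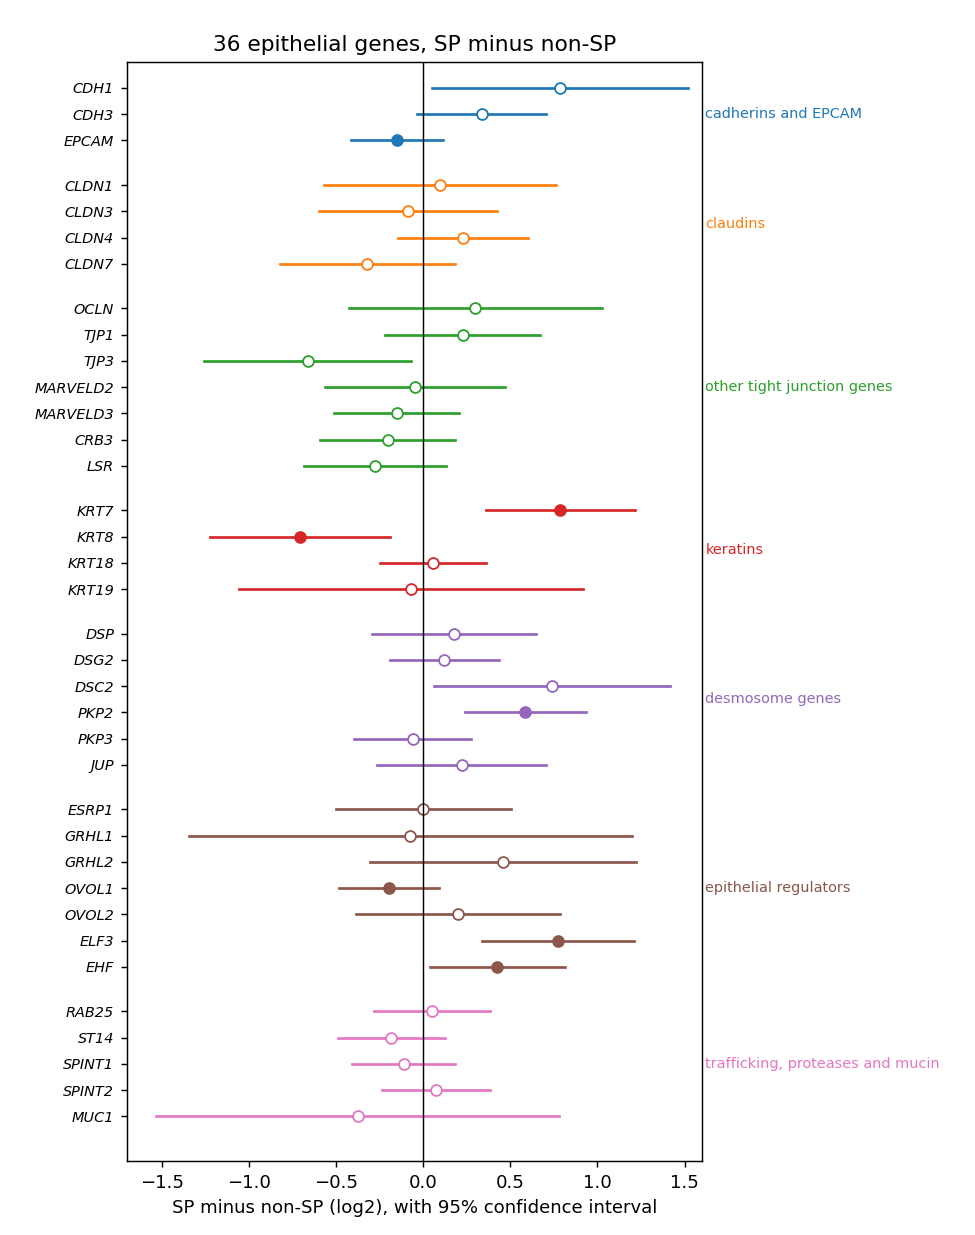
SP minus non-SP difference (log2, horizontal axis) of the 36 measured members with its 95% confidence interval from limma, grouped by role; filled points are members whose SP and non-SP values do not overlap. Most points lie within 0.25 of 0, KRT7 (0.79) and CDH1 (0.79) stand at the upper end and KRT8 (-0.71) and TJP3 (-0.66) at the lower end.

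Among the cell surface adhesion genes, CDH1, which encodes E-cadherin, the core of epithelial adherens junctions, had log2 levels of 10.14, 10.72 and 10.73 in SP samples, against 9.16, 10.25 and 9.82 in non-SP samples. Only non-SP replicate 2 reached the range of the SP samples, where it lay above SP replicate 1. The means were 10.53 ± 0.34 in SP and 9.74 ± 0.55 in non-SP cells (SD, n = 3 each), a difference of 0.79 (SE 0.31) or 1.72-fold with a 95% interval of 1.04 to 2.87 (limma, adjusted p = 0.709). A second CDH1 probe set, with 6.96, 6.38 and 6.83 in SP and 6.20, 6.35 and 5.91 in non-SP samples, differed by 0.57 with no overlap. The level of the main CDH1 probe set also followed the ACTB signal. Within the low-ACTB arrays its SP minus non-SP difference was 0.65 and within the high-ACTB arrays 0.48. With the array set as a block it was 0.56 (SE 0.20, limma adjusted p = 0.4). The second probe set was only 0.16 higher on the high-ACTB arrays, and the array sets overlapped. Its difference was 0.91 within the low-ACTB arrays and 0.25 within the high-ACTB arrays.

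EPCAM, an epithelial surface adhesion molecule, had levels of 12.08, 12.00 and 12.08 in SP samples, against 12.20, 12.12 and 12.29 in non-SP samples. The SP values lay below the non-SP values with a gap of 0.04, and the difference was -0.15 (SE 0.11, 95% interval -0.42 to 0.11). CDH3, which encodes P-cadherin, had levels of 5.30, 4.92 and 5.00 in SP samples and 4.60, 4.69 and 4.93 in non-SP samples. It differed by 0.34 (SE 0.15), with the groups overlapping only at SP replicate 2 and non-SP replicate 3. Its level lay below the median of all genes (6.27).

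The 4 claudins, the strand-forming proteins of tight junctions, showed no common direction. CLDN4 differed by 0.23 (SE 0.16), CLDN1 by 0.10 (SE 0.28), CLDN3 by -0.08 (SE 0.21) and CLDN7 by -0.32 (SE 0.21), and the SP and non-SP values overlapped for each. The 95% intervals were -0.15 to 0.60 for CLDN4 and -0.82 to 0.18 for CLDN7, so differences of that size in either direction cannot be told from 0 with these arrays. CLDN3 was higher in SP within the low-ACTB arrays (0.28) and lower within the high-ACTB arrays (-0.15). Each value rests on 3 arrays, with 1 array alone on one side.

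Of the 7 other tight junction genes, 2 had a difference above 0 and 5 below, with a median of -0.15. TJP3, which encodes the scaffold ZO-3, had levels of 7.13, 6.94 and 6.54 in SP samples, against 7.88, 7.09 and 7.64 in non-SP samples. SP replicates 2 and 3 lay below all non-SP samples, and SP replicate 1 lay just above non-SP replicate 2. The difference was -0.66 (SE 0.25), 0.632 of the non-SP level with a 95% interval of 0.418 to 0.954 (limma, adjusted p = 0.692). The other TJP3 probe set differed by -0.44, and within the low-ACTB and high-ACTB arrays the main one differed by -0.63 and -0.35.

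TJP1, which encodes the related scaffold ZO-1, differed by 0.23 (SE 0.19), and OCLN, which encodes occludin, by 0.30 (SE 0.30). All 4 OCLN probe sets lay between 0.30 and 0.36. With the array set as a block the OCLN difference was 0.05 (SE 0.13) and that of TJP1 0.10 (SE 0.13). LSR, which organises tricellular junctions, differed by -0.28 (SE 0.17), CRB3, an apical polarity protein, by -0.20 (SE 0.16), MARVELD3 by -0.15 (SE 0.15) and MARVELD2, also called tricellulin, by -0.04 (SE 0.22). All 3 MARVELD3 probe sets were below 0, down to -0.72 for one that was above background on 5 of 6 arrays.

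The keratins, the intermediate filaments of epithelial cells, held the highest and the lowest difference of the 36 members. KRT7, a type II keratin of simple epithelia that is used to type ovarian carcinomas, had levels of 11.12, 11.62 and 11.55 in SP samples, against 10.55, 10.86 and 10.53 in non-SP samples. Every SP value lay above every non-SP value. The means were 11.43 ± 0.27 in SP and 10.64 ± 0.18 in non-SP cells (SD, n = 3 each), a difference of 0.79 (SE 0.18) or 1.73-fold with a 95% interval of 1.28 to 2.32 (limma, adjusted p = 0.451; 0.128 to 0.951 over 16 alternatives). Within the low-ACTB and high-ACTB arrays it was 0.59 and 0.73.

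Of the other KRT7 probe sets, 2 differed by 0.75 and 0.80, with overlap only between SP replicate 1 and non-SP replicate 2. The dimmest, with 4.56, 4.35 and 4.15 in SP and 5.44, 4.67 and 3.73 in non-SP samples, differed by -0.26 and spread widely among the non-SP samples.

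KRT8, also a type II keratin and the usual partner of KRT18, had levels of 7.60, 7.42 and 7.18 in SP samples, against 8.22, 7.70 and 8.40 in non-SP samples. The SP values lay below the non-SP values, by a gap of 0.09 at SP replicate 1 and non-SP replicate 2. The means were 7.40 ± 0.21 in SP and 8.11 ± 0.37 in non-SP cells (SD, n = 3 each), a difference of -0.71 (SE 0.22) or 0.613 of the non-SP level with a 95% interval of 0.428 to 0.877 (limma, adjusted p = 0.611; 0.253 to 1 over 16 alternatives). Within the low-ACTB and high-ACTB arrays it was -0.71 and -0.40.

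KRT18, the type I partner, had levels of 10.91, 10.89 and 11.01 in SP samples and 11.01, 10.93 and 10.70 in non-SP samples, and its difference of 0.06 had a 95% interval of -0.25 to 0.36. KRT8 and KRT18 are each represented by 1 probe set of a class that may bind related transcripts, and both genes have many processed pseudogenes, so their values are less certain than those of KRT7. The difference between the KRT8 and KRT18 differences was not tested. KRT19 differed by -0.07 (SE 0.41), the widest error among the keratins.

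**Figure D2:**
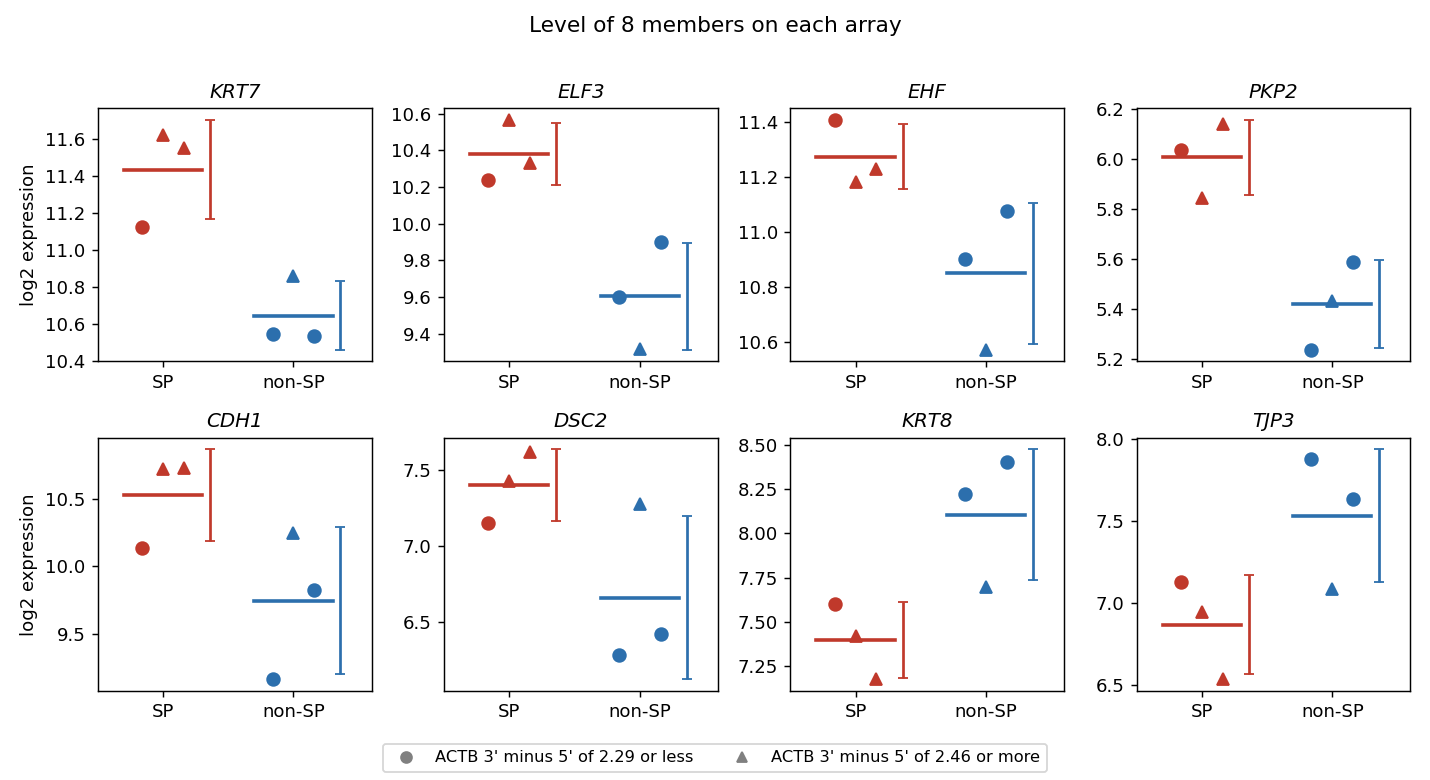
Log2 expression (vertical axes, each on its own scale, not starting at 0) of 8 members in the 3 SP and 3 non-SP samples; bars are group means with SD beside them, and triangles mark the high-ACTB arrays. KRT7, ELF3, EHF and PKP2 have every SP value above every non-SP value, KRT8 has every SP value below, and CDH1, DSC2 and TJP3 overlap at non-SP replicate 2.

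Of the 6 desmosome genes, 5 had a difference above 0, with a median of 0.20, and 0 passed the adjusted threshold. PKP2, plakophilin 2, which links desmosomal cadherins to keratins, had levels of 6.04, 5.84 and 6.14 in SP samples, against 5.24, 5.43 and 5.59 in non-SP samples. The groups did not overlap, and the difference was 0.59 (SE 0.15) or 1.5-fold with a 95% interval of 1.18 to 1.91 (limma, adjusted p = 0.506). It was 0.62 within the low-ACTB arrays and 0.56 within the high-ACTB arrays. Its other probe set, which overlapped between the groups, differed by 0.43 (SE 0.42).

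DSC2, the desmosomal cadherin desmocollin 2, had levels of 7.15, 7.43 and 7.62 in SP samples, against 6.28, 7.27 and 6.42 in non-SP samples. Non-SP replicate 2 lay within the range of the SP samples and the other non-SP samples well below it. The difference was 0.74 (SE 0.28), or 1.67-fold with a 95% interval of 1.04 to 2.67 (limma, adjusted p = 0.701), and within the low-ACTB and high-ACTB arrays it was 0.80 and 0.25. All 4 DSC2 probe sets were above 0, between 0.45 and 0.77, the lowest of them being above background on 1 array.

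The other desmosome genes differed less. JUP, plakoglobin, differed by 0.22 (SE 0.20), DSP, desmoplakin, by 0.18 (SE 0.20), DSG2, desmoglein 2, by 0.12 (SE 0.13) and PKP3 by -0.06 (SE 0.14).

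Among the 7 measured regulators, 2 (28.6%) had every SP value above every non-SP value, beside 4.78% of all genes. They were the ETS factors ELF3 and EHF. OVOL1, 1 of the 7 (14.3%), had every SP value below every non-SP value, beside 7.1% of all genes. ELF3, an epithelial ETS factor, had levels of 10.24, 10.57 and 10.33 in SP samples, against 9.6, 9.32 and 9.9 in non-SP samples. The groups did not overlap. The means were 10.38 ± 0.17 in SP and 9.6 ± 0.29 in non-SP cells (SD, n = 3 each), a difference of 0.77 (SE 0.18) or 1.71-fold with a 95% interval of 1.26 to 2.31 (limma, adjusted p = 0.476; 0.235 to 0.934 over 16 alternatives). Its 2 other probe sets differed by 0.59 (SE 0.37), with the groups overlapping, and 0.97 (SE 0.22), with no overlap. The first of these had 9.61, 8.33 and 9.63 in non-SP samples. For every ELF3 probe set non-SP replicate 2 was the lowest array, and without it the main probe set differed by 0.63. Within the low-ACTB and high-ACTB arrays the main probe set differed by 0.49 and 1.13, the latter against non-SP replicate 2 alone.

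EHF, the related ETS factor, had levels of 11.41, 11.18 and 11.23 in SP samples, against 10.90, 10.57 and 11.08 in non-SP samples, also with no overlap. The difference was 0.43 (SE 0.16), or 1.34-fold with a 95% interval of 1.03 to 1.76 (limma, adjusted p = 0.701). This probe set, chosen for its level, gave the lowest difference of the 6 for EHF: the others ranged from 0.57 to 1.56, and 5 of the 6 had no overlap between the groups. The highest, with 8.26, 7.19 and 7.67 in SP and 6.53, 4.75 and 7.16 in non-SP samples, rested in part on a low value in non-SP replicate 2. For every EHF probe set non-SP replicate 2 was the lowest of the 6 arrays, and without it the main probe set differed by 0.29. Probe sets of 1 gene measure the same samples and are not replicates.

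Across all 74 member probe sets, 12 had SP values wholly above the non-SP values, beside 5.59% of all probe sets, and 3 wholly below, beside 6.87%. EHF accounted for 5 of the 12 and ELF3 for 2, with 1 each for KRT7, PKP2, CDH1, DSC2 and GRHL1. In the limma fit over every probe set 0 of the 74 passed the adjusted threshold, where 0.00183% of all probe sets did, and 17 (23%) had an unadjusted p under 0.05, beside 7.31% of all probe sets; probe sets of 1 gene are counted separately here. Of the 24 members with several probe sets, 7 had probe sets of both signs.

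**Figure D3:**
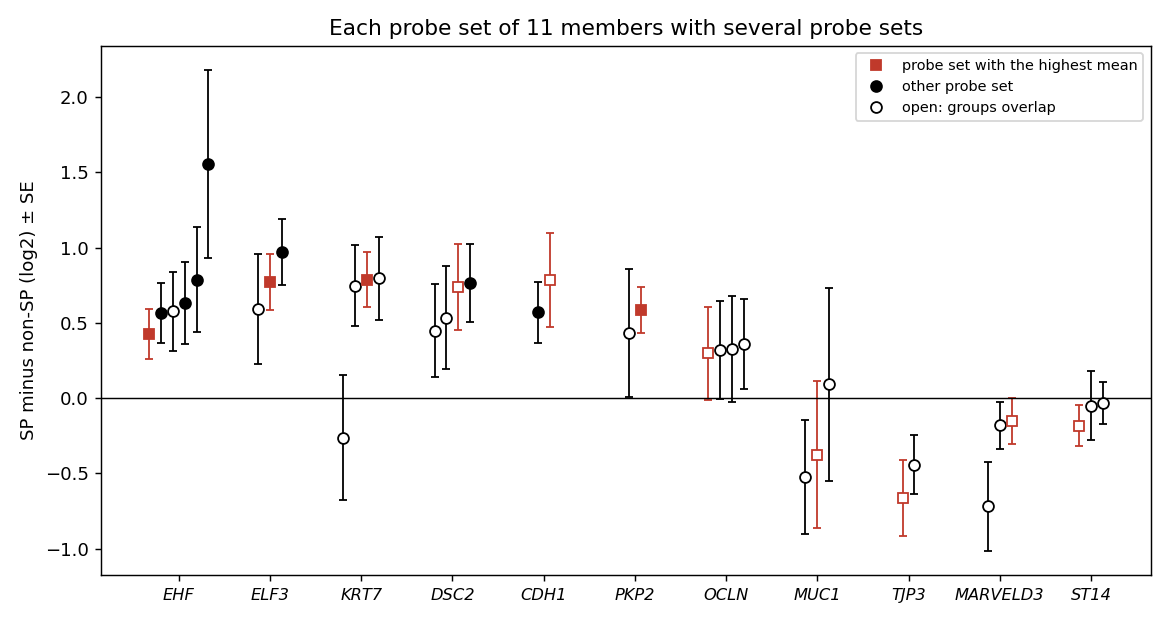
SP minus non-SP difference (log2, vertical axis) with its SE from the limma fit over every probe set, for each probe set of 11 members; squares are the probe set with the highest mean, and open symbols have groups that overlap. All 6 EHF and all 3 ELF3 probe sets lie above 0, from 0.43 to 1.56 and from 0.59 to 0.97, while those of KRT7 and MUC1 lie on both sides. The 11 are a selection from the 24 members with several probe sets. Of the 7 members with probe sets of both signs, CLDN4, MARVELD2, ESRP1, GRHL1 and OVOL2 are not shown.

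The remaining regulators were dim or close to 0. OVOL1, a zinc finger repressor, had levels of 5.07, 5.21 and 5.21 in SP samples, against 5.42, 5.23 and 5.43 in non-SP samples, and differed by -0.20 (SE 0.12) with a gap of 0.02 at non-SP replicate 2. Its relative OVOL2 differed by 0.20 (SE 0.24). ESRP1, an epithelial splicing factor, differed by less than 0.01 (95% interval -0.50 to 0.50). The main GRHL1 probe set ranged from 3.25 to 4.90 in SP samples and from 3.42 to 5.04 in non-SP samples, and differed by -0.07 (SE 0.53). The other GRHL1 probe set, also dim, differed by 0.33 (SE 0.14, limma adjusted p = 0.674), with every SP value above every non-SP value. GRHL2 was above the background probe sets on 1 of 6 arrays, so no fold is given for it; it was the 1 member of 36 that did not lie above background on all arrays.

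Among the trafficking, protease and mucin genes, SPINT2, a serine protease inhibitor, differed by 0.07 (SE 0.13), RAB25, a small GTPase of epithelial recycling, by 0.05 (SE 0.14), SPINT1 by -0.11 (SE 0.12) and ST14, the protease matriptase that SPINT1 inhibits, by -0.18 (SE 0.13). MUC1, a membrane mucin, had levels of 9.70, 8.36 and 9.14 in SP samples and 10.20, 8.59 and 9.53 in non-SP samples. The groups overlapped over most of their range, and the difference of -0.37 (SE 0.48) was 0.00 with the array set as a block.

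Several members varied between the array sets more than between SP and non-SP cells. KRT19 had levels of 12.12, 12.13 and 11.94 on the low-ACTB arrays (SP 1, non-SP 1 and non-SP 3) and 11.24, 11.27 and 10.77 on the high-ACTB arrays (SP 2, SP 3 and non-SP 2), so that its mean was 0.97 lower on the high-ACTB arrays. MUC1 was 1.11 lower on the high-ACTB arrays, with the 2 array sets not overlapping. OCLN was 0.77 higher there, CDH1 0.86, DSC2 0.82, CLDN1 0.63 and TJP1 0.41. Of the 36 members, 8 were wholly higher and 5 wholly lower on the high-ACTB arrays. Over all genes, 26.9% did not overlap between the array sets, in either direction. This is a description of arrays parted on the same values, with no test.

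**Figure D4:**
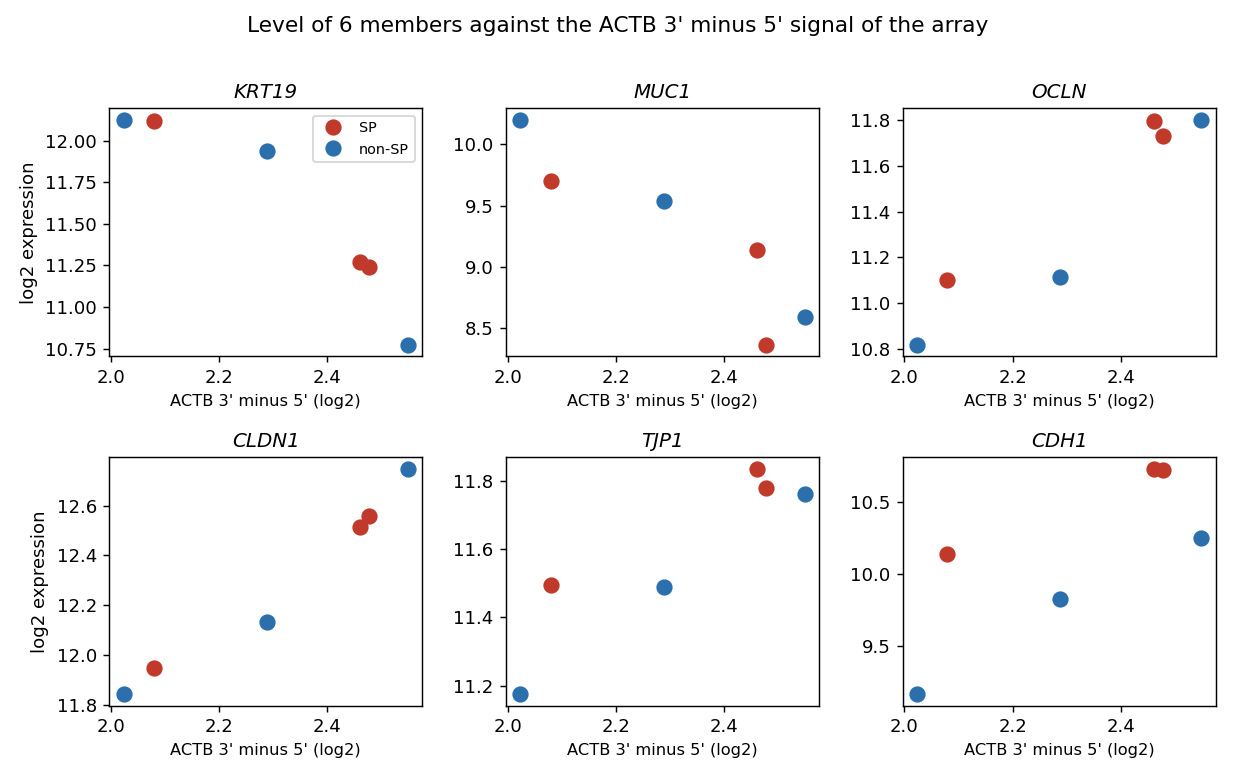
Log2 expression (vertical axes, each on its own scale) of 6 members against the ACTB 3' minus 5' control signal (log2, horizontal axes), 1 point per array, SP and non-SP by colour. KRT19 and MUC1 are lower, and OCLN, CLDN1, TJP1 and CDH1 higher, on the 3 arrays at 2.46 or more.

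Of 71 measured genes of the same structures or of the epithelial-to-mesenchymal transition outside the list, 0 passed the adjusted threshold in limma and 4 (5.63%) had an unadjusted p under 0.05, beside 6.78% of all genes. Of 13 other claudins, 6 were above 0 (median 0.00). CLDN23 had levels of 7.24, 7.01 and 7.30 in SP samples, against 6.77, 6.08 and 6.40 in non-SP samples, a difference of 0.77 (SE 0.20, limma adjusted p = 0.527) with no overlap. CLDN15 differed by -0.25 (SE 0.12), with every SP value below every non-SP value. CLDN2 differed by 0.23 (SE 0.12) and CLDN18 by 0.25 (SE 0.19), with overlap. Of the 13, 1 lay wholly above and 1 wholly below (7.69% each), beside 4.78% and 7.1% of all genes.

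Of 22 measured junction adaptor and polarity genes, 15 were below 0 (median -0.07). CGNL1, paracingulin, which links junctions to the cytoskeleton, had levels of 8.68, 7.73 and 7.48 in SP samples, against 8.98, 8.99 and 9.36 in non-SP samples. Every SP value lay below every non-SP value, and the difference of -1.15 (SE 0.32, limma adjusted p = 0.562) was greater in size than that of any of the 36 members. JAM3, a junctional adhesion molecule, differed by -0.58 (SE 0.22) and DLG1 by -0.33 (SE 0.14), both with overlap. PARD6A differed by -0.36 (SE 0.17), with every SP value below every non-SP value. Of the 22 genes, 2 lay wholly below (9.09%), beside 7.1% of all genes, and 0 wholly above, beside 4.78%.

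Of 14 other desmosome and hemidesmosome genes, 8 were above 0 (median 0.04). LAMB3, a laminin chain of the matrix below hemidesmosomes, had levels of 9.73, 10.11 and 10.33 in SP samples, against 8.97, 9.47 and 8.77 in non-SP samples. The groups did not overlap, and the difference was 0.99 (SE 0.24, limma adjusted p = 0.48). ITGB4, the hemidesmosomal integrin, differed by 0.29 (SE 0.20), its partner ITGA6 by 0.24 (SE 0.17) and PKP1 by 0.16 (SE 0.12), each with overlap. Of the 14 genes, 1 lay wholly above (7.14%), beside 4.78% of all genes, and 0 wholly below, beside 7.1%.

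Of 10 other keratins, 7 were below 0 (median -0.09). KRT13 differed by -0.43 (SE 0.20), KRT16 by -0.33 (SE 0.20), KRT20 by -0.24 (SE 0.12) and KRT23 by -0.15 (SE 0.13). KRT13 and KRT20, 2 of the 10 (20%), had every SP value below every non-SP value, beside 7.1% of all genes. Those lying wholly above numbered 0, beside 4.78% of all genes. KRT13 and KRT20 averaged 3.03 and 2.09 in SP cells and 3.45 and 2.33 in non-SP cells, near or below background. Of 12 factors and junction genes of the epithelial-to-mesenchymal transition, 3 were above 0 (median -0.08). SNAI1, a repressor that binds E-boxes, differed by -0.29 (SE 0.15), VIM, the mesenchymal filament vimentin, by -0.40 (SE 0.33), PRRX1 by -0.21 (SE 0.17) and FN1, fibronectin, by 0.37 (SE 0.20). VIM differed by -0.12 with the array set as a block.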

How the data were processed

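RNA of sorted cells was amplified from small amounts, per the labels' protocols. The authors deposited log2 values for each probe set. The submitters' processing notes name R (2.8.1), affy and RMA; other settings of these steps were not given in the sources used here. RMA compresses differences near background and removes global shifts. Precision is limited by the number of arrays.

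Of 54675 probe sets, 62 controls were left out; 41091 carried 1 gene symbol, 1801 several and 11721 none, and 41037 matched RefSeq (GRCh38.p14) by Entrez ID. A gene was represented by its brightest probe set on average over all 6 arrays. SP minus non-SP was fitted with limma 3.58.1 (R 4.3.3, lmFit, eBayes) over 19775 genes, two-sided, without filter or block, with Benjamini-Hochberg adjustment at 0.05. Intervals are at 95% for each gene by itself and are not adjusted for the number of genes. The fit was also run on simulated data with independent noise, without the array sets and with changes larger than that of any member. That run therefore does not bear on the member differences given here.

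The members and lists were chosen with earlier results of these data known. Every member is named. Full values are given by rule for members whose groups do not overlap, with an unadjusted p under 0.05 or with the 3 highest or 3 lowest differences, and for CDH1, EPCAM, KRT8 and KRT18; up to 4 genes of each related list are named by p. Array values of KRT19, CDH3 and GRHL1, and the windows to print, were chosen after values were seen. Alternatives covered replicate and array-set blocks, averaged or single probe sets, a level filter, cyclic loess, median centring, trend with robust prior, array weights, the ACTB covariate and leaving out each sample.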

Additional observations from a re-analysis of the deposited data

How the results depend on the processing

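No member passed the adjusted threshold in any of the 16 alternatives (limma), and 26 of the 36 members kept their sign in all of them; for all genes the counts higher and lower, 0 and 1 in the reported fit, were 1 and 2 with the ACTB covariate, 1 and 4 with the array set as a block, 4 and 8 with array weights, 1 and 2 with the replicate block, 0 and 0 with the mean of probe sets or with only genes above the median level, and 0 and 1 to 2 with 1 sample left out. Whether the replicate numbers pair the samples was not settled. Deviations of same-numbered SP and non-SP samples correlated at 0.449, 0.381 and -0.212, and those of differently numbered samples at -0.573 to 0.4. The member median of 0.05 was 0.007 among genes above the median level and 0.02 to 0.08 with 1 sample left out. With every probe set, 43 were above 0 and 12 wholly higher, of 74 rather than 36. With 1 sample left out, the members wholly higher numbered 5 to 10 and those wholly lower 3 to 7, while 7.74% to 11.5% and 10.2% to 16.2% of all genes did so in the same settings. Signs turned with the array set as a block for CLDN1 (-0.13), CLDN3 (0.0649), KRT19 (0.29) and PKP3 (0.0119), with the ACTB covariate for KRT19 (0.059), with array weights for GRHL1 (0.25) and MARVELD2 (0.0147), with cyclic loess and median centring for ESRP1 (0.0501 and 0.0341), and with the mean of probe sets for ESRP1 (0.0926), GRHL1 (0.13), MARVELD2 (0.11) and DLG1 (0.0731); the cause was not tested. With 1 sample left out the difference ranged from -0.10 to 0.35 for CLDN1, -0.30 to 0.0722 for CLDN3, -0.22 to 0.13 for ESRP1, -0.46 to 0.36 for GRHL1, -0.03 to 0.12 for KRT18, -0.49 to 0.19 for KRT19, -0.19 to 0.20 for MARVELD2, -0.80 to 0.0043 for MUC1, -0.14 to 0.0401 for PKP3 and -0.028 to 0.16 for RAB25. Members below the median level have no value under the filter on dim genes.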
